A study of Mus musculus with 34 samples.

Results

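The growth hormone and IGF axis of the liver was described from the 10 transcripts *Ghr*, *Stat5b*, *Socs2*, *Cish*, *Igf1*, *Igfals*, *Igfbp1*, *Igfbp2*, *Igfbp3* and *Igfbp4*, taken by gene name from the 78298 rows of the gene count table. All 10 were among the 14980 genes that passed the filter on low counts and were tested. Bulk RNA-seq of whole liver was compared between WT mice and SIRT1intKO mice, which lack *Sirt1* in gut epithelial cells but keep it in hepatocytes. Livers were collected at 0 hours from untreated animals and at 6 and 24 hours after partial hepatectomy (PHx), the surgical removal of the left lateral and median lobes. By the labels there were 6, 6 and 4 WT livers and 6, 5 and 7 SIRT1intKO livers at 0, 6 and 24 hours. The paper's figure captions give 5 WT livers at 6 hours and 5 at 24 hours, and the labels were followed here. All mice were young adult males of C57/Bl6 background and carried loxP-flanked *Sirt1* alleles. SIRT1intKO mice also carried Cre under the Villin promoter, which is active in the gut epithelium, so the hepatic *Sirt1* level does not check the genotype. In the labels the library names of the untreated livers form a separate number range from those of the operated ones, and untreated animals had no surgery, so PHx, surgery as such and handling cannot be told apart in any comparison with 0 hours.

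Growth hormone from the pituitary binds its receptor on hepatocytes, where JAK2 phosphorylates STAT5B, and STAT5B then drives transcription of *Igf1*, *Igfals*, *Socs2* and *Cish*. The liver secretes most of the circulating IGF1, which travels in a ternary complex with IGFBP3 and the acid-labile subunit encoded by *Igfals*. Male rodents release growth hormone in pulses, and *Cish* and *Socs2*, whose proteins damp the signal, are short-lived reporters of recent receptor activity. IGFBP1 and IGFBP2 bind IGF outside the ternary complex, and *Igfbp1* is a hepatic gene that fasting and stress raise and insulin represses.

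Promoter windows from RefSeq (build GRCm38.p6, 250 bases before to 50 bases after each annotated start) were at hand for 9 of the 10 genes, *Socs2* being without an entry, and gave 14 windows. The STAT5 element TTCNNNGAA, which reads the same on both strands, lies in 8.3% of 32851 windows of the same length and occurs at least 2 times in 0.457% of them. Of the axis genes, *Cish* and *Igfals* had it. One *Cish* window held 2 copies, at bases 1 to 9 and 12 to 20 counted from the start, and 2 of the 3 *Igfals* windows held 1 copy each, ending 228 and 50 bases before their starts. The insulin response element CAAAACA, searched on both strands and present in 6.28% of all windows, lay in the *Igfbp1* window at 108 to 102 bases before the start. The forkhead element GTAAACA, present in 3.65% of windows, lay on the reverse strand of 1 *Igfals* window at 242 to 236 bases before its start. These 4 stretches are shown because *Igfals* and *Igfbp1* had the lowest and the highest changes from 0 hours in SIRT1intKO livers and *Cish* is the reporter of recent signalling. All 30 bases of the *Cish* stretch lie in an untranslated region of the reference annotation, whose gene and end were not checked. The stretch begins before the RefSeq start from which its bases are counted. All are on the plus strand, capitals mark the STAT5 elements in *Cish* and *Igfals* and the insulin response element in *Igfbp1*, and a match describes the letters of the window only.
Cish, chr9:107296654-107296683: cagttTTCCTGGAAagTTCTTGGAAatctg
Igfals, chr17:24878163-24878191: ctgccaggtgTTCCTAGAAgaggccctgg
Igfals, chr17:24877594-24877843: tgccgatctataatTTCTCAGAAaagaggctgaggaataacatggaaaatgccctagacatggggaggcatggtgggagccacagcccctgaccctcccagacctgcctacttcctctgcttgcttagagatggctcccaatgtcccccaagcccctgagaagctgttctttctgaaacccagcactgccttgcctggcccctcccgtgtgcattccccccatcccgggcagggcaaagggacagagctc
Igfbp1, chr11:7197537-7197776: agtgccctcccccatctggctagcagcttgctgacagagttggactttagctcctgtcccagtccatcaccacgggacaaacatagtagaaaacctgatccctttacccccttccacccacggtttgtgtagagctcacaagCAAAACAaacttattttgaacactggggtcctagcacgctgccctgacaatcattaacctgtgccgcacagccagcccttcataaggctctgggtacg

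Expected counts summed to between 14892122 and 23480492 per library, with a median of 16807340. Levels are given as CPM, counts scaled to an equal library size after TMM scaling, as mean ± SD over livers. Markers of hepatocytes (8 of 8 detected in every group) summed to medians between 74300 and 87000 CPM over the 6 groups. Markers of sinusoidal endothelium had medians of 205 and 202 CPM at 0 hours and 85.8 and 132 CPM at 24 hours in WT and SIRT1intKO livers. Mitochondrially encoded genes took 7.55% to 9.02% of the counts in WT and 7.31% to 8.73% in SIRT1intKO livers at 0 hours, 5.43% to 7.13% and 5.15% to 6.08% at 6 hours, and 5.35% to 6.94% and 4.51% to 7.82% at 24 hours. This share thus moved with time after PHx, without overlap with 0 hours except in SIRT1intKO livers at 24 hours, and its part in the changes from 0 hours was not tested. In bulk tissue, fewer cells of a type and less RNA per cell cannot be told apart. Per kilobase of the longest annotated transcript, the mean WT level at 0 hours was 346 CPM for *Igfbp2*, 285 for *Igfbp4*, 228 for *Igfbp1*, 98.7 for *Ghr*, 79.1 for *Igf1* and 38.5 for *Igfals*. *Socs2*, *Igfbp3*, *Cish* and *Stat5b* were lower, between 9.74 and 19.9 CPM per kilobase. The *Igf1* value came to 857 with the shortest transcript in place of the longest, and those of *Ghr* and *Igfbp4* also depend on the transcript, so their places in this order are not fixed. In the reference annotation *Igf1* and *Cish* overlap antisense genes; the libraries were stranded, but the strand setting of the counting is not given in the sources used here.

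After PHx the axis genes that passed the test (an adjusted p under 0.05, edgeR quasi-likelihood over all genes) mostly fell. In WT livers at 6 hours 1 of 10 was higher, against 18.9% of all genes tested, and 5 of 10 were lower, against 18.5% (37.4% in both directions). In SIRT1intKO livers at 6 hours 1 was higher, against 20.9% of all genes, and 3 were lower, against 17.6% (38.4% in both directions). At 24 hours 1 was higher and 3 were lower in WT livers, where 19.5% and 14.6% of all genes were (34.1% in both directions), and 1 was higher and 6 were lower in SIRT1intKO livers, where 26.2% and 24.0% of all genes were (50.2% in both directions). With an absolute log2 fold change over 1 as well, 1 axis gene was higher and 3 were lower in SIRT1intKO livers at 24 hours, against 11.9% and 11.1% of all genes. The median log2 fold change of the 10 genes was -0.63 and -0.79 at 6 hours and -0.20 and -0.81 at 24 hours in WT and SIRT1intKO livers, against medians of all genes between 0.01 and 0.04. The 6-hour and 24-hour comparisons of a genotype share its 0-hour livers. *Ghr*, *Stat5b* and *Igfbp1* were called in all 4 comparisons, *Igfals* in all but WT livers at 24 hours, and *Cish*, *Igfbp3* and *Igfbp4* in none of the 4.

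**Figure D1:**
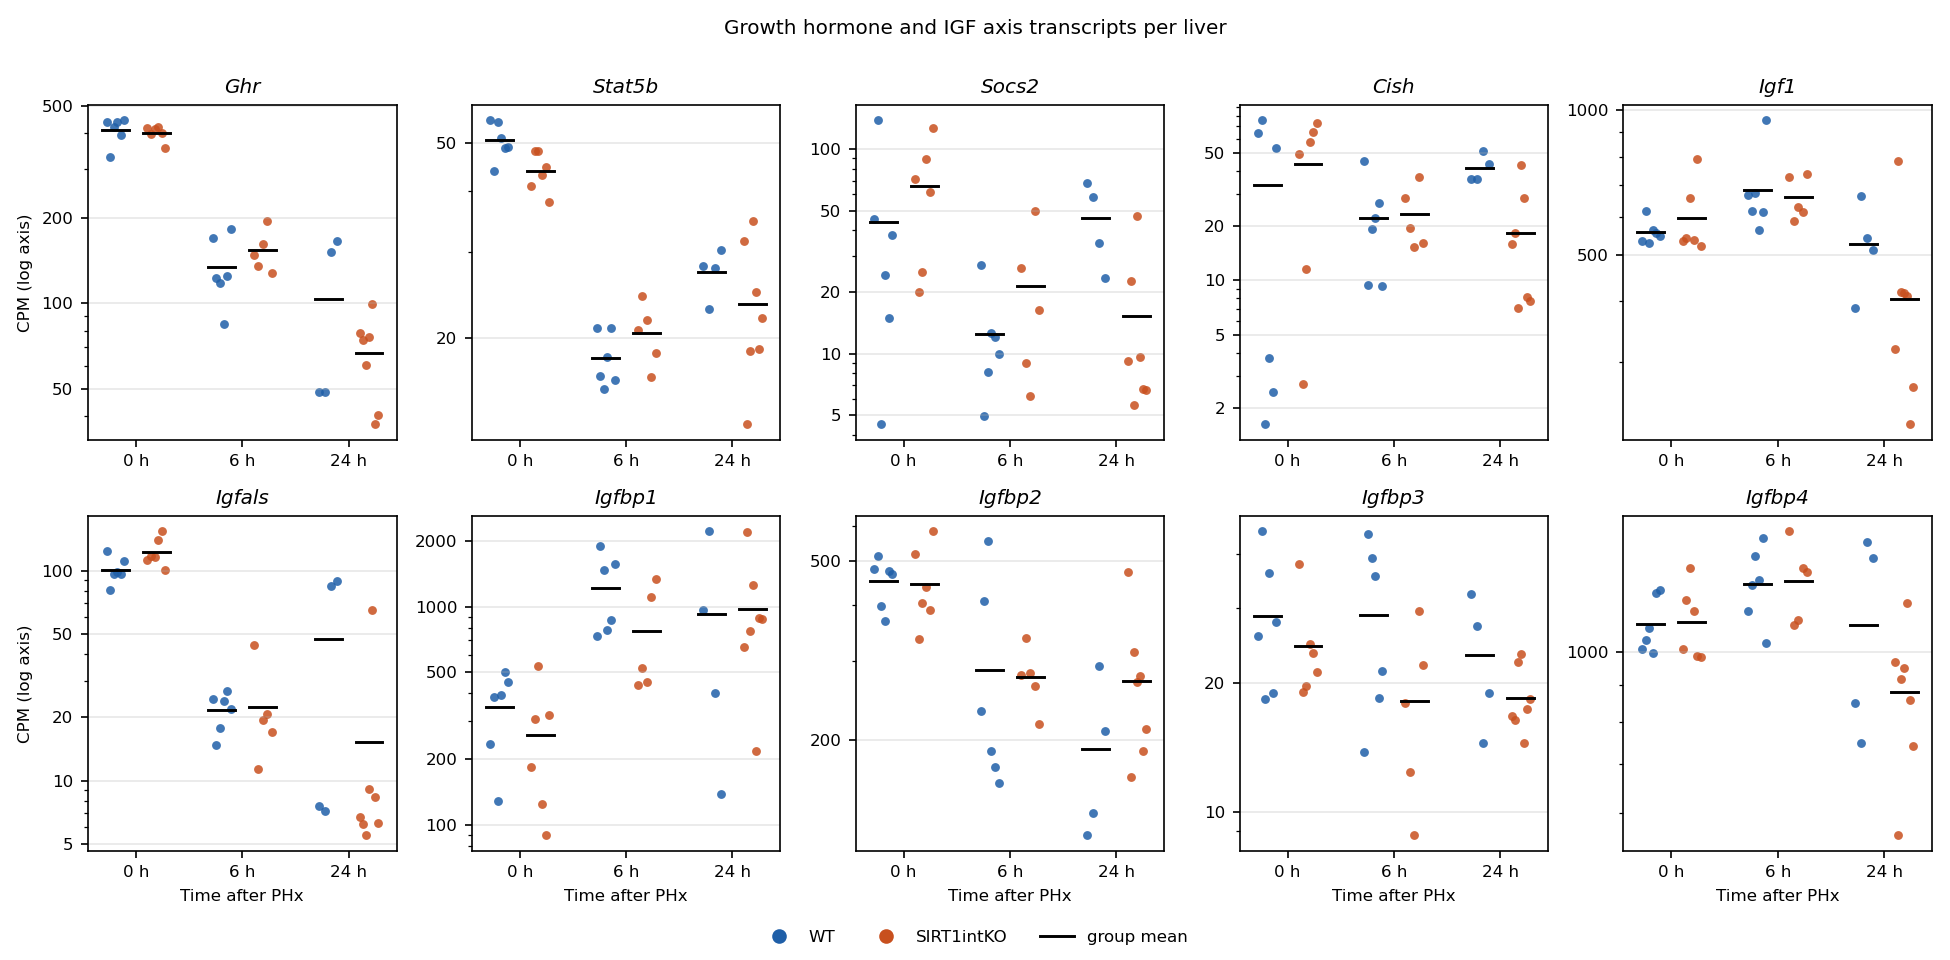
Level of each axis gene in every liver (points, CPM on a log axis) in the untreated state (0 hours) and at 6 or 24 hours, WT in blue and SIRT1intKO in orange, with black bars at the group means. In SIRT1intKO livers *Ghr* falls from between 354 and 423 CPM at 0 hours to between 37.3 and 99.6 CPM at 24 hours. The 4 WT livers at 24 hours lie in a low and a high pair for *Igfals*.

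**Figure D2:**
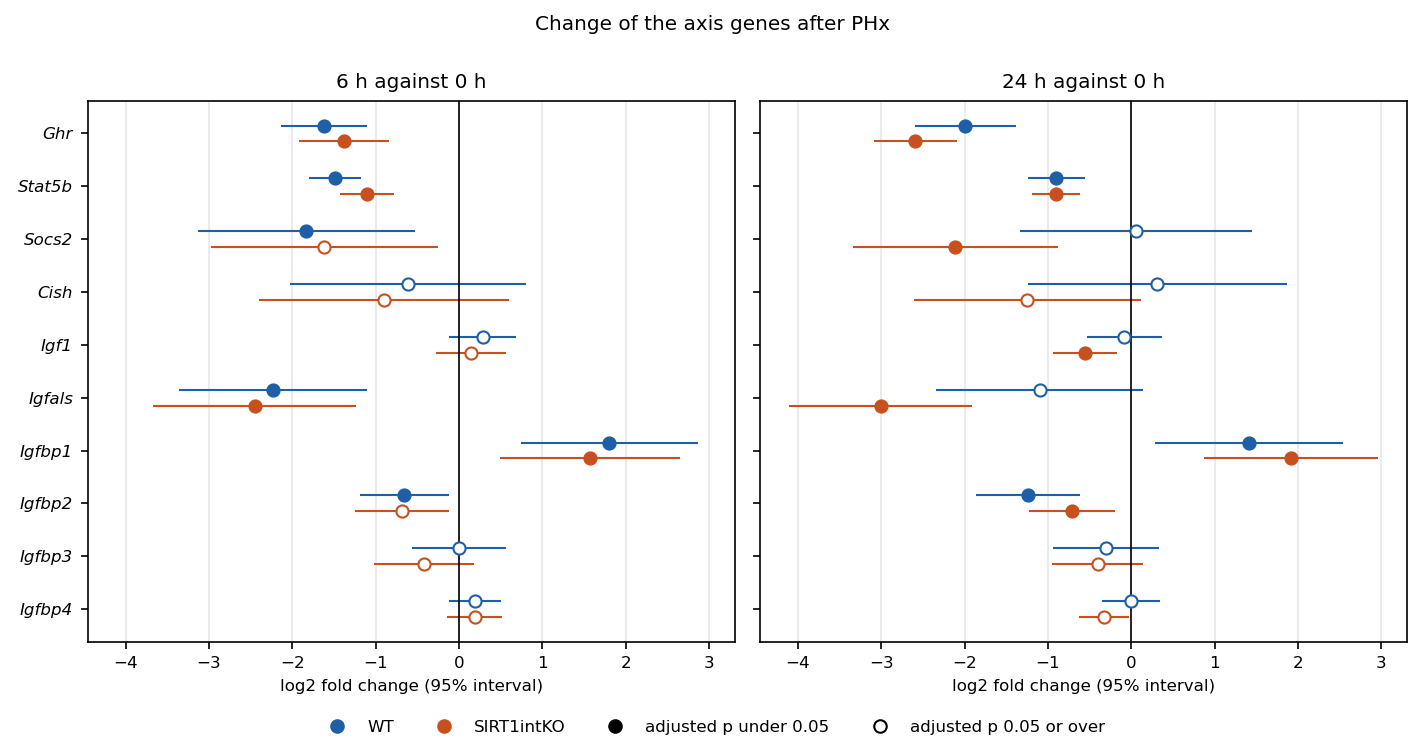
Log2 fold change of each axis gene against 0 hours in WT (blue) and SIRT1intKO (orange) livers at 6 hours (left) and 24 hours (right), with 95% intervals from the edgeR fit. Filled points have an adjusted p under 0.05, and *Igfbp1* has the only filled points above 0.

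*Ghr*, the growth hormone receptor, fell in both genotypes and at both times. In WT livers its lowest, median and highest levels were 330, 431 and 445 CPM at 0 hours and 84.7, 124 and 184 CPM at 6 hours, and the 4 livers at 24 hours had 48.5, 48.7, 152 and 166 CPM. In SIRT1intKO livers the lowest, median and highest were 354, 407 and 423 CPM at 0 hours and 37.3, 74.1 and 99.6 CPM at 24 hours, with 149, 136, 163, 196 and 128 CPM in the 5 livers at 6 hours. No liver after PHx reached the 0-hour range. The mean in WT livers fell from 412 ± 44.3 (n = 6) to 134 ± 36.6 CPM (n = 6) at 6 hours, 3.07-fold lower, or -1.62 on the log2 scale (adjusted p = 8.73e-06 by edgeR, SE 0.25). At 24 hours it was 104 ± 63.9 CPM (n = 4), or -1.99 on that scale (edgeR adjusted p = 1.13e-05, SE 0.30). In SIRT1intKO livers the log2 fold change was -1.38 at 6 hours (edgeR adjusted p = 0.000156) and -2.59 at 24 hours (edgeR adjusted p = 3.87e-09), 2.6-fold and 6.02-fold in mean CPM. Between 6 and 24 hours *Ghr* fell further in SIRT1intKO livers, by 1.21 (edgeR adjusted p = 0.000627), without overlap between the 2 groups.

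*Stat5b*, the transcription factor below the receptor, fell in both genotypes and at both times. Levels in WT livers were 43.9, 50.2 and 55.7 CPM (lowest, median, highest) at 0 hours and 15.7, 17.5 and 20.9 CPM at 6 hours, and 28, 22.9, 27.8 and 30.2 CPM in the 4 livers at 24 hours. In SIRT1intKO livers they were 37.9, 44 and 48.3 CPM at 0 hours, 20.8, 24.4, 21.8, 16.6 and 18.6 CPM at 6 hours, and 13.3, 22 and 34.6 CPM at 24 hours. Again no liver after PHx overlapped the 0-hour livers of its genotype. The log2 fold change was -1.48 (adjusted p = 9.44e-09, SE 0.15) in WT and -1.10 (adjusted p = 3.5e-06, SE 0.16) in SIRT1intKO livers at 6 hours by edgeR, and -0.90 in both at 24 hours (edgeR adjusted p = 0.00019 and 6.78e-06). In WT livers *Stat5b* rose again between 6 and 24 hours by 0.58 on the log2 scale (edgeR adjusted p = 0.0148, SE 0.17), without overlap. This was the only one of the 10 genes called in that comparison, in which 16.5% of all genes were called, 6.43% as lower (7.16% with an absolute log2 fold change over 1 as well, and then none of the 10).

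*Cish*, whose protein blocks STAT5 docking at the receptor, differed between livers of the same group by more than an order of magnitude before surgery. The 6 WT livers at 0 hours, replicates 1 to 6, had 64.2, 75.6, 1.62, 3.77, 2.44 and 53.3 CPM, and the 6 SIRT1intKO livers had 49.5, 2.69, 11.6, 57.8, 65.2 and 73.5 CPM. In each genotype some livers were above 49 CPM and the others below 12 CPM. *Socs2*, which encodes an adaptor of receptor ubiquitination, had 45.6, 138, 4.5, 24.1, 15 and 37.8 CPM in the same WT livers and 71.6, 20, 24.9, 89.8, 61.9 and 126 CPM in the same SIRT1intKO livers. The livers with high *Cish* were in each genotype also those with the highest *Socs2*. *Ghr* spanned only 330 to 445 CPM and *Igf1* 521 to 792 CPM in these 12 livers. The time of death relative to a growth hormone pulse is not given in the sources used here.

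**Figure D3:**
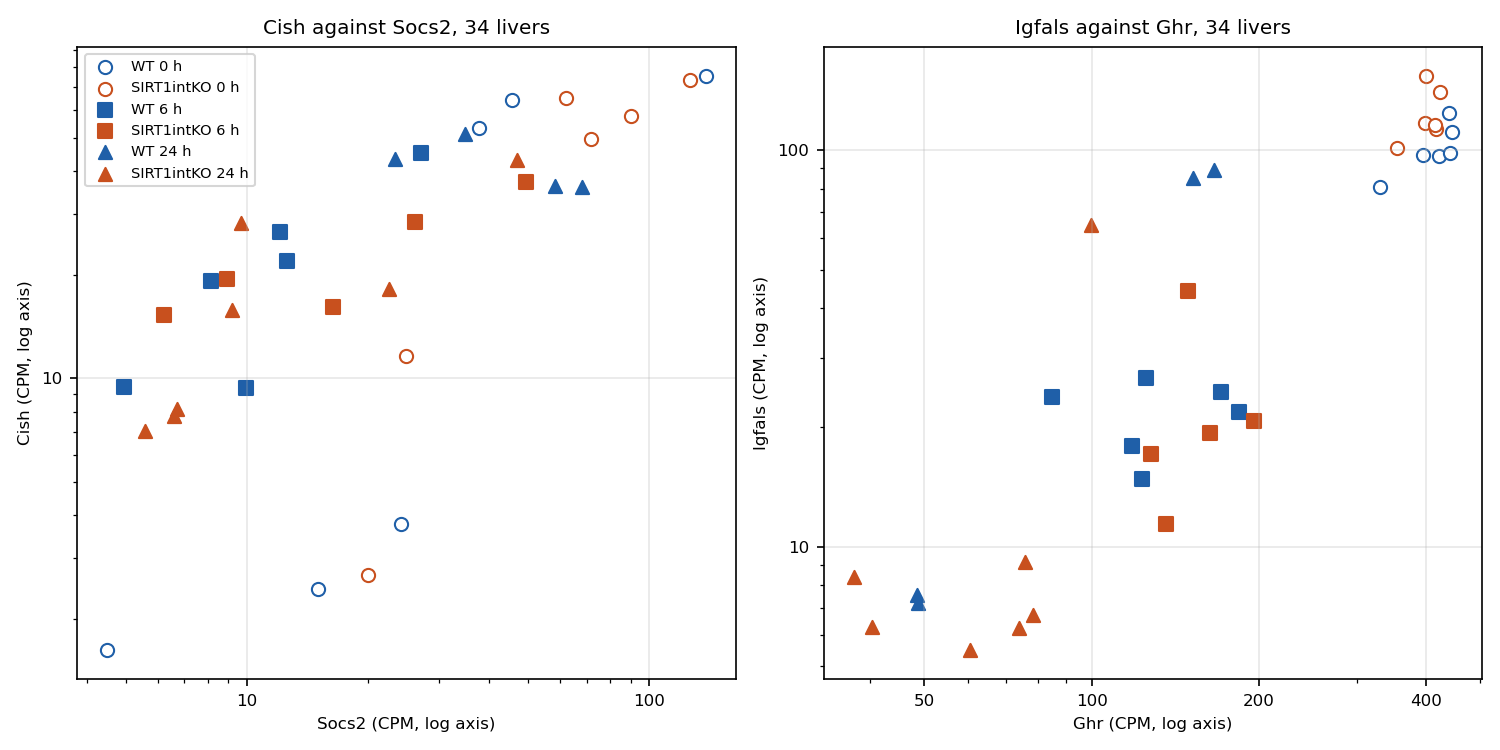
*Cish* against *Socs2* (left) and *Igfals* against *Ghr* (right) in the 34 livers, all axes in CPM on log scales, open circles for 0 hours, squares for 6 hours and triangles for 24 hours, WT in blue and SIRT1intKO in orange. The 0-hour livers span *Cish* levels from 1.62 to 75.6 CPM, and 1 SIRT1intKO liver at 24 hours, with 64.7 CPM of *Igfals*, lies beside the high pair of WT livers.

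After PHx the spread of *Cish* between livers was smaller than at 0 hours. WT livers had 9.34, 20.6 and 45 CPM (lowest, median, highest) at 6 hours and 36, 36.2, 51.1 and 43.3 CPM at 24 hours. SIRT1intKO livers had 28.5, 19.4, 15.3, 37.2 and 16.1 CPM at 6 hours and 7.02, 15.8 and 42.9 CPM at 24 hours. No *Cish* comparison passed the test, and the intervals of its changes from 0 hours were wide, from -2.03 to 0.80 at 6 hours and -1.24 to 1.87 at 24 hours in WT livers on the log2 scale. In SIRT1intKO livers the interval was -2.39 to 0.60 at 6 hours and -2.61 to 0.11 at 24 hours.

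*Socs2* was called lower than at 0 hours in WT livers at 6 hours and in SIRT1intKO livers at 24 hours. Its 6-hour changes were close in both genotypes. WT levels were 4.96, 11 and 27.1 CPM (lowest, median, highest) at 6 hours and 68.1, 58.2, 34.9 and 23.3 CPM at 24 hours. SIRT1intKO levels were 26.2, 8.94, 6.23, 49.5 and 16.4 CPM at 6 hours and 5.58, 9.21 and 46.8 CPM at 24 hours. All these groups overlapped the 0-hour livers. By edgeR the log2 fold change in WT livers was -1.83 (adjusted p = 0.0236, SE 0.64) at 6 hours and 0.06 (adjusted p = 0.956, SE 0.68) at 24 hours. The WT change at 6 hours rested on replicate 2 at 0 hours, the liver with 138 CPM: without it the change was -1.03 (adjusted p = 0.185), and without WT replicate 2 at 6 hours it was -1.68 (adjusted p = 0.0521). In SIRT1intKO livers the log2 fold change was -1.61 (edgeR adjusted p = 0.055, SE 0.67) at 6 hours and -2.11 (edgeR adjusted p = 0.00454, SE 0.60) at 24 hours. The WT difference between 24 and 6 hours was 1.89 (edgeR adjusted p = 0.0559, SE 0.69), and the 24-hour WT livers each lay above at least 5 of the 6 WT livers at 6 hours. The SIRT1intKO change at 6 hours passed when any 1 of 7 of the 34 libraries was left out (lowest adjusted p = 0.0181, edgeR), and the WT difference between 24 and 6 hours when any 1 of 9 was (lowest 0.0282). The former also passed with DESeq2 (adjusted p = 0.0347), with at least 10 counts in every library (edgeR adjusted p = 0.0434) and with only the groups compared (0.0302). The difference between genotypes in the 6-hour change was 0.21 (interval -1.61 to 2.03).

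*Igf1*, the hepatic hormone itself, did not pass the test in WT livers and fell in SIRT1intKO livers at 24 hours. Its lowest, median and highest levels in WT livers were 529, 551 and 617 CPM at 0 hours and 562, 641 and 952 CPM at 6 hours, and the 24-hour livers had 387, 663, 541 and 513 CPM. The log2 fold change was 0.29 (interval -0.11 to 0.69) at 6 hours and -0.08 (interval -0.53 to 0.36) at 24 hours, neither passing the test, though the former had an edgeR adjusted p of 0.0493 with only the groups compared in the fit. In SIRT1intKO livers levels were 521, 540 and 792 CPM at 0 hours, 727, 588, 630, 614 and 736 CPM at 6 hours, and 222, 411 and 785 CPM at 24 hours. There *Igf1* fell by 0.56 from 0 to 24 hours (edgeR adjusted p = 0.0145, SE 0.19) and by 0.70 from 6 to 24 hours (edgeR adjusted p = 0.00878, SE 0.20), 1.47-fold and 1.63-fold in mean CPM. Replicate 2 at 24 hours, with 785 CPM, lay above 5 of the 6 SIRT1intKO livers at 0 hours, and the other 6 livers lay between 222 and 418 CPM. Without SIRT1intKO replicate 6 at 24 hours, the lowest, the change from 0 hours was -0.42 (edgeR adjusted p = 0.057). With only the groups compared in the fit, both calls were lost (edgeR adjusted p = 0.0693 from 0 hours and 0.0728 from 6 hours).

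*Igfals*, the acid-labile subunit, had the lowest log2 fold change of the 10 genes at 6 hours in both genotypes and at 24 hours in SIRT1intKO livers. WT levels were 80.6, 97.8 and 124 CPM (lowest, median, highest) at 0 hours and 14.8, 22.9 and 26.7 CPM at 6 hours. SIRT1intKO levels were 101, 117 and 154 CPM at 0 hours and 44.1, 11.4, 19.4, 20.8 and 17.1 CPM at 6 hours. No 6-hour liver overlapped the 0-hour livers, and the log2 fold change was -2.23 (edgeR adjusted p = 0.00197, SE 0.55) in WT and -2.45 (edgeR adjusted p = 0.00165, SE 0.60) in SIRT1intKO livers, 4.68-fold and 5.47-fold lower in mean CPM.

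At 24 hours the 4 WT livers, replicates 1 to 4, had 7.56, 7.2, 85 and 89.2 CPM of *Igfals*, and the 7 SIRT1intKO livers had 6.74, 6.24, 5.48, 9.16, 64.7, 8.39 and 6.29 CPM. WT replicates 3 and 4 were thus within the 0-hour range, replicates 1 and 2 were below every 6-hour liver, and 6 of 7 SIRT1intKO livers were with the latter. The log2 fold change from 0 hours was -1.10 in WT livers (edgeR adjusted p = 0.164, SE 0.61) and -3.01 in SIRT1intKO livers (edgeR adjusted p = 3.42e-05, SE 0.54). From 6 to 24 hours SIRT1intKO livers changed by -0.56 (edgeR adjusted p = 0.463), or by -1.68 (adjusted p = 0.00292) without replicate 5, the liver with 64.7 CPM, and by -0.14 (adjusted p = 0.88) without SIRT1intKO replicate 1 at 6 hours.

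The same livers stood apart in most other members and in some markers of other cell types, named after their values were seen. WT replicates 1 to 4 at 24 hours had 48.5, 48.7, 152 and 166 CPM of *Ghr* and 962, 2210, 400 and 138 CPM of *Igfbp1*. In the same order *Igfbp4* had 851, 749, 1420 and 1350 CPM and *Igfbp2* 123, 138, 293 and 210 CPM. *Igfbp3* had 32.3, 27.1, 14.5 and 18.9 CPM, *Socs2* 68.1, 58.2, 34.9 and 23.3 CPM, and *Cish* 36, 36.2, 51.1 and 43.3 CPM. Cholangiocyte markers in these 4 livers summed to 483, 264, 64.7 and 78.9 CPM and neutrophil markers to 108, 88.1, 13.4 and 7.32 CPM. Sinusoidal endothelium markers summed to 56.8, 62.2, 146 and 109 CPM and stellate cell markers to 174, 156, 204 and 232 CPM. *Igf1* (387, 663, 541 and 513 CPM) and *Stat5b* (28, 22.9, 27.8 and 30.2 CPM) did not set WT replicates 1 and 2 apart from 3 and 4. Nor did Kupffer cell markers (113, 25.3, 109 and 84.4 CPM). SIRT1intKO replicate 5 had the highest *Ghr* (99.6 CPM) and the lowest *Igfbp1* (218 CPM), cholangiocyte sum (53.8 CPM) and neutrophil sum (22.1 CPM) of its group. It also had the highest *Igfbp4* (1170 CPM) and the lowest *Igfbp3* (14.5 CPM) of the group. Its *Igf1* level (411 CPM) was the median of the group, and its *Igfbp2* (278 CPM), *Socs2* (9.67 CPM) and *Cish* (28.3 CPM) levels were at neither end. All 6 markers of the cholangiocyte and of the neutrophil list were detected in both groups. Cholangiocyte sums ranged from 64.7 to 483 CPM in WT and 53.8 to 334 CPM in SIRT1intKO livers at 24 hours. Neutrophil sums ranged from 7.32 to 108 and from 22.1 to 948 CPM. Hepatocyte sums were 87700, 82700, 62500 and 65900 CPM in the 4 WT livers. The part of these cells in the *Igfals* levels was not tested.

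*Igfbp1* was the only one of the 10 genes called higher than at 0 hours. In WT livers its lowest, median and highest levels were 128, 388 and 500 CPM at 0 hours and 731, 1170 and 1900 CPM at 6 hours, without overlap. In SIRT1intKO livers it had 89.3, 245 and 533 CPM at 0 hours, 438, 523, 452, 1110 and 1340 CPM at 6 hours, and 218, 876 and 2200 CPM at 24 hours. The log2 fold change at 6 hours was 1.81 in WT livers (edgeR adjusted p = 0.00675, SE 0.52), 3.5-fold in mean CPM, and 1.57 in SIRT1intKO livers (edgeR adjusted p = 0.0193, SE 0.53). The latter missed the threshold when any 1 of 4 SIRT1intKO livers was left out, namely replicates 4 and 5 at 0 hours (edgeR adjusted p = 0.0512 and 0.0542) and replicates 4 and 5 at 6 hours (0.0559 and 0.0796). At 24 hours it was 1.92 in SIRT1intKO livers (edgeR adjusted p = 0.00247, SE 0.51). In WT livers at 24 hours it was 1.41 (edgeR adjusted p = 0.0478, SE 0.56), a call lost without any 1 of 13 of the 34 libraries, with no filter on low counts (0.0651) and with only the groups compared (0.11), and without replicate 2, the liver with 2210 CPM, the change was 0.53 (adjusted p = 0.551).

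*Igfbp2*, the binding protein with the highest level per kilobase of longest transcript, fell. WT levels were 369, 473 and 515 CPM (lowest, median, highest) at 0 hours, 161, 211 and 556 CPM at 6 hours, and 123, 138, 293 and 210 CPM at 24 hours. SIRT1intKO levels were 337, 421 and 583 CPM at 0 hours, 279, 338, 283, 265 and 218 CPM at 6 hours, and 166, 270 and 473 CPM at 24 hours. The 24-hour WT livers were all below the 0-hour WT livers, and the other groups overlapped. By edgeR the log2 fold changes at 6 hours were -0.65 (adjusted p = 0.0494, SE 0.26) in WT and -0.69 (adjusted p = 0.0503, SE 0.28) in SIRT1intKO livers, on either side of the threshold. The WT call at 6 hours was lost without any 1 of 22 of the 34 libraries, with adjusted p up to 0.125. It was also lost with only the groups compared (edgeR adjusted p = 0.0788) and with no filter on low counts (0.0777). The SIRT1intKO change at 6 hours passed without any 1 of 16 libraries (lowest 0.0224) and with only the groups compared (edgeR adjusted p = 0.00282). DESeq2 (adjusted p = 0.0315), RLE scaling (edgeR adjusted p = 0.0455) and at least 10 counts in every library (0.0333) also let it pass. At 24 hours the log2 fold changes were -1.24 (edgeR adjusted p = 0.00243, SE 0.31) in WT and -0.71 (edgeR adjusted p = 0.0195, SE 0.25) in SIRT1intKO livers. The latter missed the threshold without SIRT1intKO replicate 6 at 0 hours (adjusted p = 0.0522) or replicate 6 at 24 hours (0.0529).

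*Igfbp3*, the main carrier of IGF1 in blood, is made in the liver mainly by non-parenchymal cells and was low here. Group means ranged from 18.1 to 28.8 CPM, single livers from 8.8 to 45.2 CPM, and all groups overlapped. No change from 0 hours passed the test, and the log2 fold changes were 0.01 and -0.42 at 6 hours and -0.31 and -0.40 at 24 hours in WT and SIRT1intKO livers. *Igfbp4*, a binding protein that inhibits IGF action, was between 558 and 1470 CPM in all livers. Its changes from 0 hours did not pass the test either, with 0.19 in both genotypes at 6 hours and 0.00 and -0.32 at 24 hours. The last had an edgeR adjusted p of 0.0673, and passed without SIRT1intKO replicate 5 (0.0199), WT replicate 2 (0.0465) or WT replicate 3 (0.0479) at 24 hours. It also passed with DESeq2 (-0.32, adjusted p = 0.0485). In SIRT1intKO livers the 5 at 6 hours had 1470, 1090, 1110, 1310 and 1290 CPM and those at 24 hours had 558, 918 and 1170 CPM (lowest, median, highest), a fall by 0.51 on the log2 scale (edgeR adjusted p = 0.0139, SE 0.15). Without SIRT1intKO replicate 1 at 6 hours the change was -0.43 (edgeR adjusted p = 0.0554), and with only the groups compared in the fit the adjusted p was 0.0609. With *Ghr* and *Igf1*, *Igfbp4* made up the 3 genes lower at 24 than at 6 hours in SIRT1intKO livers, where 14.4% of all genes were lower and 13.2% higher (27.6% in both directions) and none of the 10 was higher. With an absolute log2 fold change over 1 as well, only *Ghr* was called, against 10.6% of all genes.

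Between genotypes none of the 10 genes passed the test at any time by edgeR, with 0% of all genes called at 0 hours, 0% at 6 hours and 5.81% at 24 hours. At an unadjusted p under 0.05 there were 0, 1 and 3 axis genes at 0, 6 and 24 hours, against 1.07%, 6.52% and 23.4% of all genes. DESeq2 called 0, 0 and 1 at an adjusted p under 0.05, and no DESeq2 share of all genes is given here. At 0 hours the log2 differences, SIRT1intKO against WT, lay between -0.43 (*Igfbp1*) and 0.57 (*Socs2*), and at 6 hours between -0.67 (*Igfbp3*, edgeR adjusted p = 0.761) and 0.78 (*Socs2*). These limits rested in part on single livers: without WT replicate 2 at 0 hours the *Socs2* difference there was 1.37, without SIRT1intKO replicate 3 that of *Igfbp1* was -0.77, and without SIRT1intKO replicate 4 at 6 hours that of *Socs2* was 0.21. The 95% intervals of the 10 genes together reached from -1.45 to 1.81 at 0 hours and from -1.75 to 2.12 at 6 hours. All groups overlapped between genotypes at all 3 times.

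At 24 hours 8 of the 10 genes were lower in SIRT1intKO than in WT livers, with a median log2 difference of -0.35 against -0.02 for all genes. *Igfals* had the lowest, -1.63 (interval -2.77 to -0.48, edgeR adjusted p = 0.0763), with 47.2 ± 46.1 CPM in 4 WT and 15.3 ± 21.8 CPM in 7 SIRT1intKO livers. DESeq2 gave an adjusted p of 0.0436. With edgeR *Igfals* passed without SIRT1intKO replicate 5 (-2.75, adjusted p = 0.000293), without WT replicate 1 (-1.99, adjusted p = 0.0241) and without WT replicate 2 (-1.98, adjusted p = 0.0402). Without WT replicate 4 it was -1.12 (edgeR adjusted p = 0.275). *Ghr* differed by -0.64 (edgeR adjusted p = 0.134) and passed without WT replicate 1 (adjusted p = 0.0287) or 2 (0.0499), but was -0.32 (adjusted p = 0.519) without WT replicate 4. *Socs2* differed by -1.60 (edgeR adjusted p = 0.13), with 46.1 ± 20.6 against 15.3 ± 15 CPM, and passed without SIRT1intKO replicate 4, the liver with 46.8 CPM (-2.22, adjusted p = 0.0379).

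The other 7 genes at 24 hours included *Igf1*, with -0.38 (interval -0.81 to 0.05, edgeR adjusted p = 0.28), which passed without SIRT1intKO replicate 2 (-0.63, adjusted p = 0.0362) and was -0.25 (adjusted p = 0.543) without WT replicate 2. *Cish* had -1.19 (interval -2.68 to 0.30), with 6 of 7 SIRT1intKO livers below all 4 WT livers. *Igfbp2* and *Igfbp1* were the 2 genes above 0, with 0.51 (interval -0.08 to 1.10) and 0.08 (interval -1.04 to 1.20). *Stat5b*, *Igfbp3* and *Igfbp4* had -0.22, -0.33 and -0.31.

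The interaction, the difference between genotypes in the change from 0 hours, was not called for any of the 10 genes by edgeR at 6 hours (0% of all genes; 0 axis genes and 3.05% of all genes at an unadjusted p under 0.05) or at 24 hours (0.00668% of all genes; 2 axis genes and 12.7% of all genes at an unadjusted p under 0.05). DESeq2 called 0 at both times, again without a DESeq2 share of all genes. At 24 hours *Socs2* had -2.17 (edgeR adjusted p = 0.308) and *Igfals* -1.91 (edgeR adjusted p = 0.296). Without SIRT1intKO replicate 5 at 24 hours the *Igfals* interaction was -3.03 (edgeR adjusted p = 0.00563), and without WT replicate 4 at 24 hours it was -1.41 (adjusted p = 0.463).

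Of 14 further genes of growth hormone receptor signalling, 5 rose and 4 fell at 6 hours in WT livers and 4 rose and 3 fell in SIRT1intKO livers, where 18.9% and 18.5% (WT) and 20.9% and 17.6% (SIRT1intKO) of all genes rose and fell. At 24 hours 6 rose and 3 fell in WT and 6 rose and 4 fell in SIRT1intKO livers, against 19.5% and 14.6% and against 26.2% and 24.0% of all genes. Without WT replicate 2 at 24 hours 5 in place of 9 genes were called in WT livers at 24 hours. The median log2 fold changes of the 14 were -0.27 and 0.09 at 6 hours and 0.47 and 0.31 at 24 hours. *Lepr*, the leptin receptor, which signals through the same kinase, rose from 3.45 ± 3.66 to 48.7 ± 21.5 CPM at 6 hours in WT livers (log2 fold change 3.80, edgeR adjusted p = 1.02e-05) and was at 30.8 ± 37 CPM at 24 hours (3.13, adjusted p = 0.000291), or 1.93 (adjusted p = 0.0176) without WT replicate 2 at 24 hours. *Bcl6*, a repressor that competes with STAT5 for its sites, had log2 fold changes of -2.09 and -2.56 at 6 and 24 hours in WT livers (edgeR adjusted p = 9.52e-05 and 0.000124). *Ptpn1*, a phosphatase of JAK2, rose by 1.07 and *Stat5a* fell by 1.13 at 6 hours (edgeR adjusted p = 0.000197 and 0.000238). At 24 hours *Socs1*, another feedback inhibitor, rose by 3.65 (edgeR adjusted p = 0.00174). Without WT replicate 2 at 24 hours the *Socs1* change was 1.67 (edgeR adjusted p = 0.149).

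Of these 14 genes, 3 were lower in SIRT1intKO than in WT livers at 24 hours and none was higher, against 3.51% and 2.30% of all genes. They were *Lepr* (-1.88, edgeR adjusted p = 0.0434), *Onecut1* (-2.44, adjusted p = 0.0157) and *Stat3* (-0.73, adjusted p = 0.0206), named after their values were seen. With only the groups compared in the fit none of the 3 passed (edgeR adjusted p = 0.296, 0.256 and 0.259). Without WT replicate 2 at 24 hours *Lepr* had -0.68 (adjusted p = 0.486) and *Stat3* -0.60 (adjusted p = 0.0733), and without WT replicate 3 *Onecut1* had -1.83 (adjusted p = 0.067). *Lepr* also missed the threshold without SIRT1intKO replicate 2, 3, 4, 6 or 7 at 24 hours (adjusted p = 0.0576, 0.0732, 0.0621, 0.0829 and 0.0653). No gene of the list differed between genotypes at 0 or 6 hours by edgeR (0% of all genes at both times). At an unadjusted p under 0.05 there were 1 and 0, against 1.07% and 6.52% of all genes.

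Of 15 other IGF ligands, receptors, binding proteins and proteases, 3 rose and 2 fell in WT and 1 rose and 4 fell in SIRT1intKO livers at 6 hours, and 2 rose and 2 fell in WT and 3 rose and 3 fell in SIRT1intKO livers at 24 hours. The shares of all genes were 18.9% higher and 18.5% lower in WT and 20.9% and 17.6% in SIRT1intKO livers at 6 hours, and 19.5% and 14.6%, and 26.2% and 24.0%, at 24 hours. Without WT replicate 3 at 6 hours 3 in place of 5 genes were called in WT livers at 6 hours, and without WT replicate 2 at 24 hours 1 in place of 4 at 24 hours. Their median log2 fold changes were 0.09 and -0.12 at 6 hours and -0.20 and -0.02 at 24 hours. *Irs1*, an adaptor of the insulin and IGF1 receptors, fell by 2.01 at 6 hours and by 1.05 at 24 hours in WT livers (edgeR adjusted p = 6.25e-06 and 0.0154). The latter missed the threshold without WT replicate 1 (adjusted p = 0.0627) or 2 (0.0709) at 24 hours. *Grb14*, an inhibitor of the insulin receptor, fell by 0.99 at 6 hours (edgeR adjusted p = 8.33e-05) and *Igfbp7* fell by 0.69 at 24 hours (adjusted p = 0.00211). *Igf1r*, the IGF1 receptor, rose by 0.67 at 6 hours (edgeR adjusted p = 0.0269), a call lost without any 1 of 5 WT livers (replicates 3, 5 and 6 at 0 hours, 3 and 4 at 6 hours), with adjusted p up to 0.0797, and without the filter on low counts (0.0788) or with only the groups compared (0.0568). *Htra1*, a secreted protease that cuts IGF binding proteins, rose by 1.96 at 6 hours (edgeR adjusted p = 0.00968) and 1.79 at 24 hours (adjusted p = 0.0288), from 2.23 ± 1.21 to 8.76 ± 9.77 and 7.82 ± 7.98 CPM. Without WT replicate 3 at 6 hours the former was 1.27 (adjusted p = 0.0834). Without WT replicate 2 at 24 hours the latter was 0.81 (adjusted p = 0.414), and it also missed the threshold without WT replicate 3 or 5 at 0 hours (adjusted p = 0.0593 and 0.0599). Between genotypes at 24 hours *Grb14* was higher (0.70, edgeR adjusted p = 0.0365) and *Htra1* lower (-2.22, adjusted p = 0.0295) in SIRT1intKO livers. These were the only 2 of the 15 called, where 2.30% of all genes were higher and 3.51% lower, and they were named after their values were seen. With only the groups compared neither passed (edgeR adjusted p = 0.288 and 0.256). Without WT replicate 2 at 24 hours *Grb14* had 0.54 (adjusted p = 0.128) and *Htra1* -1.23 (adjusted p = 0.245). *Grb14* also missed the threshold without WT replicate 4 (adjusted p = 0.0699) or SIRT1intKO replicate 1, 2 or 4 (0.0768, 0.0642 and 0.0632), and *Htra1* without SIRT1intKO replicate 2 or 3 (0.0585 and 0.0555). At 0 and 6 hours none of the 15 was called between genotypes by edgeR (0% of all genes at both times). At an unadjusted p under 0.05 there were 0 and 2, against 1.07% and 6.52% of all genes.

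Male-biased genes of the mouse liver need pulsed growth hormone and STAT5B. Of 10 such genes 4 fell at 6 hours in each genotype, where 18.5% (WT) and 17.6% (SIRT1intKO) of all genes fell, and the other 6 did not pass the test. At 24 hours 8 fell in WT and 9 in SIRT1intKO livers, against 14.6% and 24.0% of all genes, and none rose in any of the 4 comparisons. Their median log2 fold changes were -0.84 and -0.89 at 6 hours and -1.97 and -3.03 at 24 hours in WT and SIRT1intKO livers. *Hsd3b5*, a steroid-metabolizing enzyme, went from 211 ± 30.3 CPM at 0 hours to 1.19 ± 1.19 CPM at 6 hours and 5.19 ± 6.28 CPM at 24 hours in WT livers (log2 fold change -7.52 and -5.33, edgeR adjusted p = 2.88e-07 and 0.000146). *Elovl3*, a fatty acid elongase, went from 1040 ± 231 to 54.2 ± 19.9 CPM at 6 hours (-4.27, edgeR adjusted p = 5.55e-06). *Selenbp2*, a selenium-binding protein, had -2.10 at 6 hours and -4.78 at 24 hours (edgeR adjusted p = 0.0113 and 0.000131). *C6*, a complement component, fell by 1.25 at 24 hours (edgeR adjusted p = 0.00526) and *Cyp2d9* by 0.89 and 1.64 at 6 and 24 hours (adjusted p = 0.0243 and 0.00101), the former with an adjusted p of 0.0521 without WT replicate 2 at 6 hours. Several of these genes have close paralogs (*Cyp2d9*, *Cyp4a12a*, *Mup20*, *Serpina1e*, *Hsd3b5*, *Selenbp2*), between which the estimated counts may be split, so their values are uncertain. None of the 10 differed between genotypes at any time by edgeR, with 0, 0 and 5 at an unadjusted p under 0.05 at 0, 6 and 24 hours (1.07%, 6.52% and 23.4% of all genes) and a median log2 difference of -0.77 at 24 hours.

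**Figure D4:**
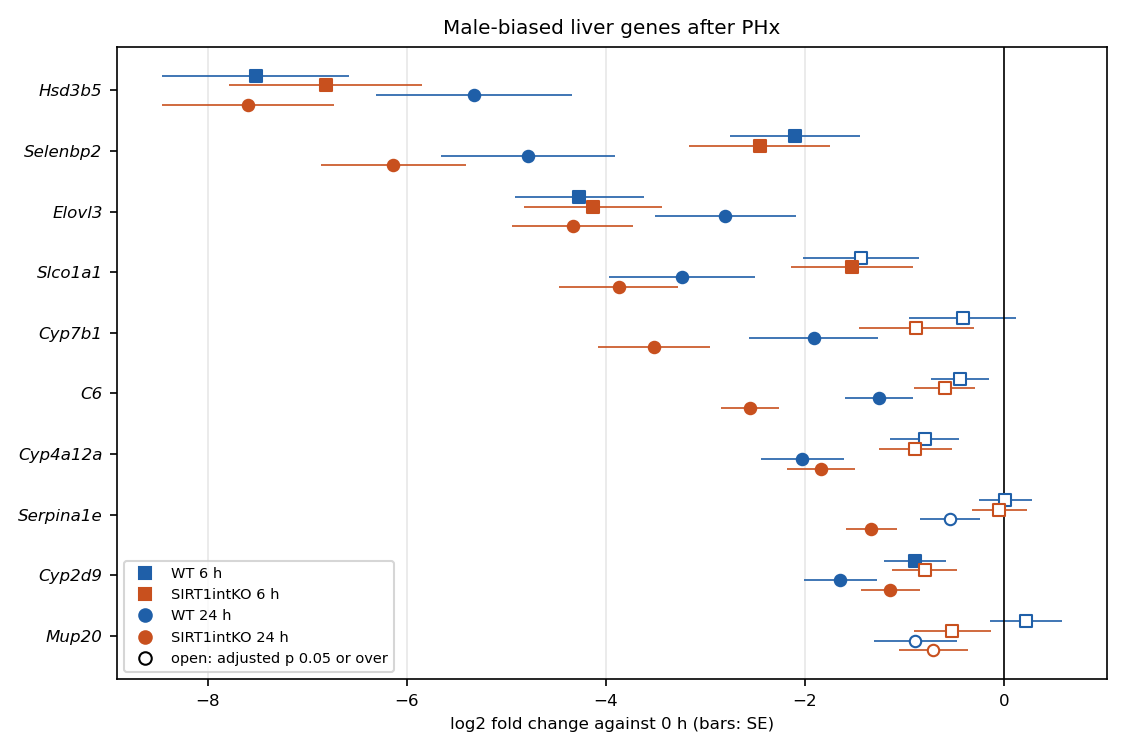
Log2 fold change against 0 hours of the 10 male-biased genes (bars, SE), squares for 6 hours and circles for 24 hours, WT in blue and SIRT1intKO in orange, filled where the adjusted p is under 0.05. All filled points lie below 0, from -0.89 for *Cyp2d9* in WT livers at 6 hours to -7.59 for *Hsd3b5* in SIRT1intKO livers at 24 hours.

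Of 10 female-biased genes that pulsed growth hormone holds low in males, only *Cux2* and *Cyp2a4* passed the filter on low counts, and the other 8 reached at most 2.39 CPM in any library. *Cux2* rose in WT livers at 24 hours (log2 fold change 4.80, edgeR adjusted p = 0.000351), from 0.29 ± 0.19 to 8.46 ± 14.2 CPM, and by 2.19 (adjusted p = 0.0709) without WT replicate 2 at 24 hours. Of all genes 19.5% were called higher and 14.6% lower in WT livers at 24 hours. In the other 3 comparisons with 0 hours neither gene passed. There 37.4% (WT at 6 hours), 38.4% (SIRT1intKO at 6 hours) and 50.2% (SIRT1intKO at 24 hours) of all genes were called. Between genotypes at 24 hours 3.51% of all genes were lower and 2.30% higher in SIRT1intKO livers. *Cux2* was lower in SIRT1intKO than in WT livers at 24 hours (-2.91, edgeR adjusted p = 0.0308), but -0.31 (adjusted p = 0.855) without WT replicate 2, and the adjusted p was 0.303 with only the groups compared. It also missed the threshold without SIRT1intKO replicate 2, 3, 6 or 7 (adjusted p = 0.0589, 0.0581, 0.057 and 0.0557).

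The transcripts whose log2 CPM followed *Igf1* most closely over the 34 livers, among 11412 genes, were *Ccar1* (Pearson r = 0.835), *Pfdn2* (0.825) and *Adtrp* (0.817). For *Igfbp1* they were *Cebpd* (0.893), *C9orf72* (0.852) and *Ddit4* (0.846). The livers of a group share genotype, time and handling, so these coefficients describe the 34 libraries and carry no test.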

How the data were processed

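Livers of 34 mice were profiled with stranded mRNA libraries, grouped by genotype and time from the labels. The table the authors deposited holds expected counts of each gene, which Salmon estimated after STAR alignment within the nf-core RNA-seq pipeline, on genome build GRCm39 per the submitters' processing notes, without normalization for depth or length. The annotation release is not given in the sources used here. Of 35 columns, 1 matched no label and was not used. Counts, of which 4.97% were not whole, were rounded. The table's symbols lack the letter x, and 1316 were restored through gene identifiers, none of them an axis gene.

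From these counts, edgeR 4.0.16 in R 4.3.3 scaled libraries by TMM, filtered genes by filterByExpr and fitted a quasi-likelihood model with 1 mean per genotype and time to all 34 libraries. Adjusted p-values are Benjamini-Hochberg values over 14980 genes and 11 comparisons are given, each adjusted on its own. The study's methods also ask for an absolute log2 fold change over 1, which was an alternative, as were DESeq2 1.42.0, RLE scaling, no filter, at least 10 counts in every library, only the groups compared, the replicate number as a block and leaving out each library. The fits were tested on simulated data. P-values measure the spread between livers the labels call biological replicates. No pair of libraries in a group agreed within sampling noise (chi-square per gene at least 14.6).

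The axis genes, the further lists (growth hormone receptor signalling, other IGF genes, male-biased and female-biased liver genes) and the markers of hepatocytes, sinusoidal endothelium, Kupffer cells, stellate cells, cholangiocytes and neutrophils were chosen with earlier results of these data known. All axis genes are named. Of each further list the text names, for WT livers at 6 and at 24 hours, the 2 highest and 2 lowest log2 fold changes among called genes with a mean of at least 1 CPM, and for *Igf1* and *Igfbp1* the 3 genes with the highest Pearson r of log2 CPM (prior count 2). One gene that this rule names is not reported here. Kupffer cell markers had medians between 96.9 and 171 CPM over the 6 groups and stellate cell markers between 189 and 274 CPM. Promoter windows and their sequences come from RefSeq on GRCm38.p6, a build other than that of the counts, so no coordinate was joined to the counts.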

Additional observations from a re-analysis of the deposited data

Results flagged for a closer look

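In 9 of 60 groups of livers, 1 per axis gene, genotype and time, the highest or lowest liver lay apart from the others by more than Dixon's 95% critical value for its share of the range. For normally distributed values this happens in about 1 in 20 groups. The criterion was applied to CPM without a log scale, where high values can stand out more, and the 60 groups hold the same livers for each gene. The 9 groups therefore cannot be weighed against that rate. In *Igfals* these were SIRT1intKO replicate 5 at 24 hours with 64.7 CPM and SIRT1intKO replicate 1 at 6 hours with 44.1 CPM. In *Socs2* they were WT replicate 2 at 0 hours with 138 CPM, WT replicate 1 at 6 hours with 27.1 CPM and SIRT1intKO replicate 4 at 24 hours with 46.8 CPM. In *Igf1* they were WT replicate 6 at 6 hours with 952 CPM and SIRT1intKO replicate 2 at 24 hours with 785 CPM. SIRT1intKO livers at 0 hours had replicate 6 with 354 CPM of *Ghr* and replicate 1 with 38 CPM of *Igfbp3*. The 4 WT livers at 24 hours lie in 2 pairs for *Igfals*, which this criterion does not pick up.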

How the results depend on the processing

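The number of axis genes called stayed within 1.5 times of the reported one in most settings. With an absolute log2 fold change over 1 as well, 4 in place of 7 genes were called in SIRT1intKO livers at 24 against 0 hours, 0 in place of 1 in WT and 1 in place of 3 in SIRT1intKO livers at 24 against 6 hours. In WT livers at 24 against 6 hours 2 genes were called with DESeq2, with the replicate block and with only the groups compared, *Socs2* being added, and with only the groups compared 1 was called in SIRT1intKO livers. DESeq2 called 1 gene, *Igfals*, between genotypes at 24 hours, and no DESeq2 share of all genes is given here. Leaving out 1 library gave 1 to 2 genes in WT livers at 24 against 6 hours, 0 to 2 between genotypes at 24 hours and 0 to 1 for the interaction at 24 hours. The counts against 0 hours ranged from 4 to 6 and 3 to 4 in WT livers and from 3 to 6 and 5 to 8 in SIRT1intKO livers at 6 and 24 hours. *Igfbp4* in WT livers at 24 hours (0.0003 as reported) was -0.0017 with DESeq2, -0.0017 with RLE, -0.0093 without the filter, -0.0241 under the minimum of 10 counts per library and -0.0138 with the replicate block, and *Igfbp3* in WT livers at 6 hours was -0.0106 under that minimum. With 1 library left out, these ranged from -0.1441 to 0.1435 and from -0.1751 to 0.1830, *Socs2* and *Igf1* in WT livers at 24 hours from -0.1807 to 0.8598 and from -0.2149 to 0.0476, and *Igfbp1* between genotypes at 24 hours from -0.2830 to 0.9614. Of 45 differences given only within ranges, 17 changed sign and 0 changed a call in at least 1 setting. The cause was not tested.

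Replicate numbers in the labels name separate animals, and livers with the same number did not deviate together (mean r -0.02 over 76 pairs, 0.0038 over 403 pairs with different numbers, 2 of 34 livers correlating best with their own number). With the replicate block *Igfbp1* in WT livers at 24 hours (adjusted p = 0.122) and *Htra1* there (0.0977) lost their calls, as did *Lepr* (0.194), *Stat3* (0.0918), *Htra1* (0.182) and *Cux2* (0.264) between genotypes at 24 hours, and *Igfbp2* (0.046) and *Socs2* (0.0307) in SIRT1intKO livers at 6 hours gained one, as did *Socs2* in WT livers at 24 against 6 hours (0.049).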
